A study of Mus musculus with 26 samples.

Results

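The 44 genes described here encode parts of the machinery with which a cell copies its DNA and divides. They were picked by gene symbol, and all 44 had a count among the 24411 genes of the deposited table and were among the 12227 genes with enough reads to be tested. By role they fall into 19 S phase members (Ccne1, Ccne2, Cdk2, Cdc6, Cdc45, Cdt1, Mcm2 to Mcm7, Pcna, Tyms, Rrm1, Rrm2, Tk1, Gins2 and E2f1), 21 mitotic members (Mki67, Top2a, Ccna2, Ccnb1, Ccnb2, Cdk1, Cdc20, Plk1, Aurka, Aurkb, Bub1, Bub1b, Birc5, Kif11, Kif20a, Kif23, Cenpe, Cenpf, Tpx2, Ube2c and Nusap1) and 4 regulators of G1 (Ccnd2, Ccnd3, Cdkn1a and Cdkn1b). The expression filter asked for enough reads in at least 2 of the 26 libraries, whichever these were.

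The series measured polyadenylated RNA in 26 libraries, 2 for each of 13 groups of CD4+ T cells, freshly sorted from the spleen and lymph nodes of C57BL6/J animals. Regulatory T cells (Treg) are the CD4+ T cells that express the transcription factor Foxp3 and restrain immune responses, and BATF is a transcription factor of activated lymphocytes. In all groups a surface or fluorescent reporter placed behind Foxp3 marked the Treg.

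Mutant Treg were set beside their controls in 4 pairs of groups. BATFKO Treg carried Batf-/- with the Foxp3-IRES-hCD2 reporter, so that Batf was missing in every cell of the animal, and were set beside WT Treg of Foxp3-IRES-hCD2 mice. BATFcKO Treg YFP came from Foxp3-IRES-YFPCre/Foxp3-IRES-hCD2 mice with Batfflox/flox, in which Cre made from a Foxp3 allele deletes Batf in Treg, and were set beside WT Treg YFP with the same 2 Foxp3 alleles and intact Batf, both gated as YFP+ and hCD2-. Foxp3R397W Treg carried a point-mutant Foxp3 allele with the hCD2 tag next to a wild-type allele tagged with GFP, Foxp3KO Treg carried the fs101 allele in the same arrangement, and each was set beside its own control Treg with the wild-type allele behind hCD2. These 4 groups were gated as hCD2+ and GFP-. Foxp3 is X-linked, so the mice also held Treg using the GFP allele, and the cells sorted as YFP+ likewise developed beside Treg using the hCD2 allele.

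The other groups divide unmutated cells of the Foxp3-IRES-hCD2 mice by surface phenotype. Effector Treg (eTreg) were hCD2+ CCR7lo CD62Llo, central Treg (cTreg) hCD2+ CCR7hi CD62Lhi CD44lo, effector conventional T cells (Teff) hCD2- CCR7lo CD62Llo and naive conventional T cells (Tnaive) hCD2- CCR7hi CD62Lhi CD44lo. A last group, here called Tconv after its title, was hCD2-, although its cell type label reads Treg. Nothing in the labels tells whether both libraries of a group stem from different animals, so every p-value below measures the spread between these samples, which may be technical.

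A dividing cell passes through G1, copies its DNA in S phase, and separates the copies in mitosis. Cyclin D proteins with their kinases release E2F factors, which switch on genes for the replication helicase (Mcm2 to Mcm7, Cdc45, Gins2), its loading (Cdc6, Cdt1) and nucleotide supply (Tyms, Rrm1, Rrm2, Tk1), and a later wave of genes supplies the kinases, motors and checkpoint proteins of mitosis. Most CD4+ T cells in a lymph node rest outside the cycle, and in bulk RNA fewer cycling cells and less RNA per cycling cell cannot be told apart.

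The waves are known to be read from different promoter elements, so the promoters of the most abundant members are shown, 250 bases before to 50 after the start of each gene, from the RefSeq table of the mouse build GRCm38.p6. That table held 36 of the 44 members. Ccne2, Mcm4, Gins2, Ccna2, Aurkb, Kif20a, Tpx2 and Ccnd2 had no entry. Capitals mark matches on either strand to the E2F forms TTTCGCGC, TTTGGCGC, TTTCCCGC and TTTGCCGC, the cell cycle homology region TTTGAA and the CCAAT box CCAAT, where matches that overlap were each counted. The first 3 sequences are S phase promoters, all on the minus strand, at chr1:128359656-128359955 for Mcm6, chr2:132253131-132253430 for Pcna and chr6:88898731-88899030 for Mcm2. Mitotic promoters follow, at chr7:135716330-135716629 for Mki67 and chr11:99024140-99024439 for Top2a, both on the minus strand, and at chr19:37376132-37376431 on the plus strand for Kif11. The last is that of Tk1, at chr11:117825965-117826264 on the minus strand, chosen after the values were seen because Tk1 passed the test in more comparisons than any other member.
Mcm6: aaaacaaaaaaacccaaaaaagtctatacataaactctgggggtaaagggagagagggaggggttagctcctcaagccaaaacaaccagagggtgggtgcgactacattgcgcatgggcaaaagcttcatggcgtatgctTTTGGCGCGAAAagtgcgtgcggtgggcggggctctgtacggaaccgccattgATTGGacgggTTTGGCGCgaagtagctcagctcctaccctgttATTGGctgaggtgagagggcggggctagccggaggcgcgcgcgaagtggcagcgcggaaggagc
Pcna: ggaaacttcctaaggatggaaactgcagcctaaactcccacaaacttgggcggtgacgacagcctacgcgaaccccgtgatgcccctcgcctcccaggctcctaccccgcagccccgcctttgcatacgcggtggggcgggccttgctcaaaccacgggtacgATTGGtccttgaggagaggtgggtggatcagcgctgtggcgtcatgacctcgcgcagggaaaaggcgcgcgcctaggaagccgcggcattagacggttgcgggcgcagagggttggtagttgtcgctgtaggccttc
Mcm2: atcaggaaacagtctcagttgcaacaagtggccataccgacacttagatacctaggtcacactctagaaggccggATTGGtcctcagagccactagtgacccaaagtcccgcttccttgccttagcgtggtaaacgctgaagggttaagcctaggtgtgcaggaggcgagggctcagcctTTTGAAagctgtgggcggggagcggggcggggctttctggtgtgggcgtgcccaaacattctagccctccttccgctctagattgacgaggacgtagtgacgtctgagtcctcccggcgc
Mki67: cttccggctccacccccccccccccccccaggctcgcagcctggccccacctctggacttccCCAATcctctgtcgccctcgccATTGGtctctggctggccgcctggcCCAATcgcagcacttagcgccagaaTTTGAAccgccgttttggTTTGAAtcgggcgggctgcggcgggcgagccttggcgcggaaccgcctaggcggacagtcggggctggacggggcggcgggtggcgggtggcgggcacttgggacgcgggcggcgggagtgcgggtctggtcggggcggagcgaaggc
Top2a: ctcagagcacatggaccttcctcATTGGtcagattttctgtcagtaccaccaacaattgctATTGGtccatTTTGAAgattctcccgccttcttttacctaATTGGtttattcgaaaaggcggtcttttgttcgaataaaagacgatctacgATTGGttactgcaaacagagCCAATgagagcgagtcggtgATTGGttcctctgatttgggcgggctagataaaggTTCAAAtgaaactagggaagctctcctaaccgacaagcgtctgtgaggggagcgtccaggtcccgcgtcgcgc
Kif11: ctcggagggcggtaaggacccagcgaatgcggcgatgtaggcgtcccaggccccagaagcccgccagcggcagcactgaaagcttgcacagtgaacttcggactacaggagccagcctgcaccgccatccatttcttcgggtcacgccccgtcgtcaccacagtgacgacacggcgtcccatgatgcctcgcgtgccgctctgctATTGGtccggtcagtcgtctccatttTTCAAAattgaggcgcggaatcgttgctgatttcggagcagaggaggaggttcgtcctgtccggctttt
Tk1: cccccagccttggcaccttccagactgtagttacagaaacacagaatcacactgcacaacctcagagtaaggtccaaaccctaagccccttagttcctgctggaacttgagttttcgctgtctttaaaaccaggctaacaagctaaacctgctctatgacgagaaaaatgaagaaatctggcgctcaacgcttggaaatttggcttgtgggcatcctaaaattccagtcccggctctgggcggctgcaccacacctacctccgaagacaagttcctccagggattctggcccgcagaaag

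E2F forms occurred in 7 of 16 S phase promoters (43.8%) and 1 of 17 mitotic promoters (5.88%), against 626 of all 27025 promoters in the table (2.32%). The TTTGAA element was in 2 of 16 S phase promoters (12.5%) and 12 of 17 mitotic ones (70.6%), against 18.1% of all promoters. CCAAT was in 10 of 16 S phase promoters (62.5%) and 15 of 17 mitotic ones (88.2%), against 37.9% of all. Both CCAAT and TTTGAA stood in 12 of 17 mitotic promoters (70.6%) and 2 of 16 S phase promoters (12.5%), against 7.12% of all promoters. The Mki67, Top2a and Kif11 sequences above show that pair, as does the S phase sequence of Mcm2, which holds no E2F form. The Mcm6 sequence carries E2F forms and CCAAT, the Pcna sequence holds CCAAT alone, and the Tk1 window holds none of the letters searched. Among the matches of the mitotic promoters, the median distance to the start was -18.5 bases for TTTGAA and -79.0 bases for CCAAT. These matches describe letters only.

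The libraries held 5615929 to 34613707 counted reads. Those of Foxp3KO Treg and their controls were the deepest at 26321134 to 34613707, the 4 subsets sorted by CCR7 and CD62L had 9774025 to 10641332, and the rest had 5615929 to 7300917. Levels below are CPM, read counts scaled to library size with TMM factors. Batf had 7.22 and 6.83 CPM in BATFKO Treg, against 46.1 and 82.9 CPM in WT Treg, and 19.5 and 15.9 CPM in BATFcKO Treg YFP, against 67.8 and 58.5 CPM in WT Treg YFP. Foxp3 had 109 and 113 CPM in Foxp3KO Treg, against 348 and 326 CPM in their controls, and 0.274 to 4.07 CPM in Teff, Tnaive and Tconv. Cd3e and Cd4 were detected in all 26 libraries, and the globin genes Hbb-bs, Hbb-bt, Hba-a1 and Hba-a2 were at 0 in all 26. The 2 Teff libraries stood apart, with a sum of 313 and 96.0 CPM over 10 myeloid and dendritic markers, against 11.8 to 30.9 CPM in all other libraries, and of 344 and 243 CPM over 6 CD8 and NK markers, against 17.3 to 59.8 CPM elsewhere.

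Per kilobase of exon, the G1 regulators were the most abundant members, with a median of 44 CPM per kb over all libraries. The S phase members followed with a median of 5.99, ranging from 0.965 CPM per kb for Ccne2, a cyclin of the G1 to S passage, to 52.7 for Pcna, the sliding clamp of DNA polymerase. The mitotic members had a median of 1.58 CPM per kb, from 0.390 for Ccnb1, the cyclin that drives entry into mitosis, to 8.32 for Mki67, which coats mitotic chromosomes and marks cycling cells. Between groups the order of the medians was the other way round. The highest group mean over the lowest had a median of 19.3 over the mitotic members, ranging from 3.86 for Cdc20 to 107 for Ccnb1, against a median of 2.53 over the S phase members, from 1.36 for Cdk2 to 20.8 for Cdc6. The G1 regulators had a median of 2.15, from 1.88 for Cdkn1b to 294 for Cdkn1a. In its lowest group Ccnb1 had 2 reads (cTreg) and Cdkn1a had 1 (Tnaive). All 21 mitotic members and 13 of 19 S phase members had their highest group mean in the Foxp3KO controls, and 17 mitotic and 8 S phase members had their lowest in Tnaive. The 4 libraries of Foxp3KO Treg and their controls stood apart in other genes as well, with Jchain, an antibody chain of plasma cells, at 35.6 to 42.9 CPM, against at most 2.08 CPM elsewhere, and the T cell gene Cd3e at 321 to 342 CPM, against 577 CPM or more elsewhere. In an order of groups taken across sets, the set and the group cannot be told apart.

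**Figure D1:**
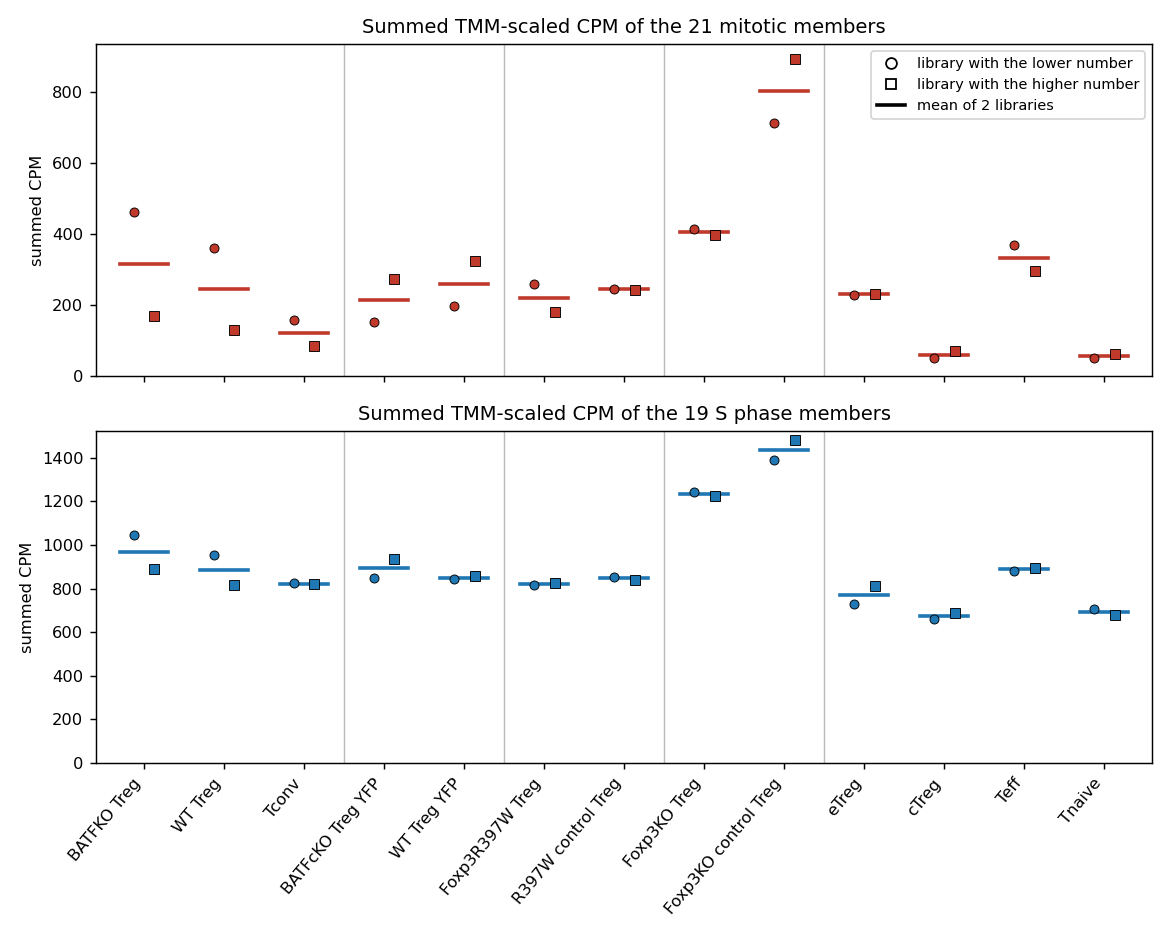
Summed TMM-scaled CPM of the 21 mitotic and the 19 S phase members on the vertical axes, by group on the horizontal axis, with 1 point a library and a bar at the mean of 2 libraries. The mitotic sum was 371 and 296 CPM in Teff, against 50.7 and 62.8 CPM in Tnaive, while the S phase sum was 881 and 895 CPM in Teff, against 705 and 681 CPM in Tnaive.

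In the germline and YFP sets, of the sums over the member lists, that of the mitotic members differed most between the libraries of a group. In the germline set (BATFKO Treg, WT Treg and Tconv), library 1 over library 2 gave a ratio of the mitotic sum of 2.70 in BATFKO Treg, 2.77 in WT Treg and 1.83 in Tconv, with 20, 21 and 17 of 21 members higher in library 1. The ratio for library 2 over library 1 was 1.78 in BATFcKO Treg YFP and 1.65 in WT Treg YFP. The G1 sum differed by less, with 0.992 in BATFKO Treg, 1.02 in WT Treg and 1.03 in Tconv for library 1 over library 2. In each of these groups 2 of 4 G1 regulators were higher in library 1. The low-level member Cdkn1a was higher in library 2, with 4.81 and 14.7 CPM in BATFKO Treg. It had 9.92 and 20.0 CPM in WT Treg and 2.30 and 6.26 CPM in Tconv. In the YFP set Cdkn1a was higher in library 1, with 5.51 and 0.804 CPM in BATFcKO Treg YFP and 3.43 and 1.12 CPM in WT Treg YFP. All libraries share 1 estimate of the spread per gene, so this split also enters the tests of the other groups.

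**Figure D2:**
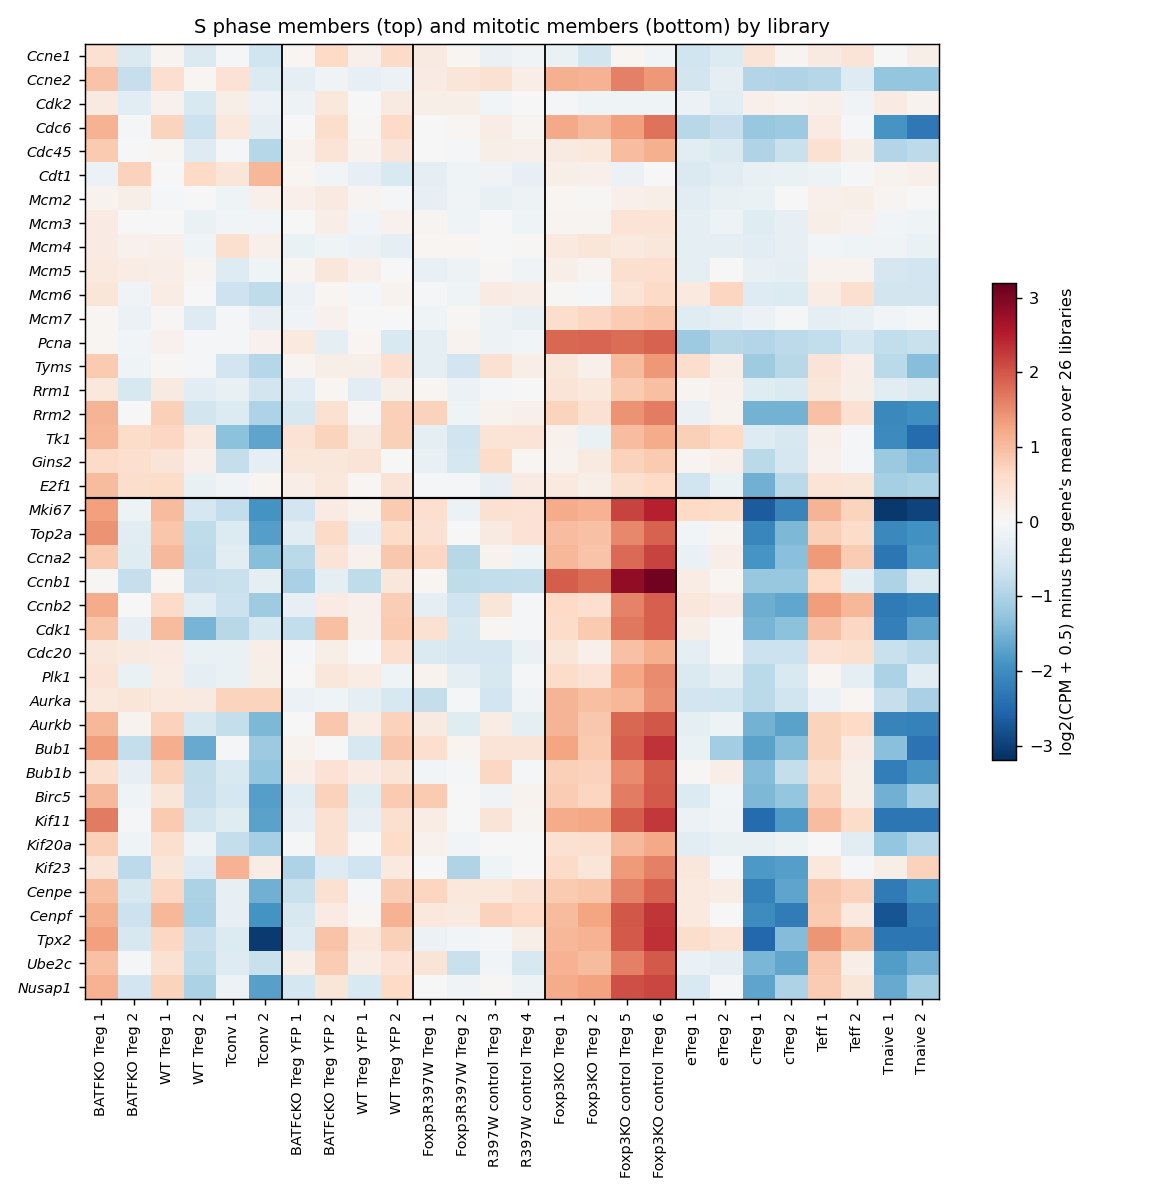
Level of each S phase member (top) and mitotic member (bottom) in every library, as log2(CPM + 0.5) minus the mean of that gene over 26 libraries. Tnaive and cTreg libraries are low across most mitotic members, and both Foxp3KO control libraries are high across them.

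Effector Treg were set against central Treg to show how far the division genes go with the effector phenotype. Of the 21 mitotic members, 13 rose in eTreg and none fell, and of the 19 S phase members 6 rose and 1 fell, where 18.8% of all tested genes were called higher and 12.3% lower. A call is an adjusted p below 0.05 in edgeR's quasi-likelihood test over all 12227 genes. The median log2 fold change was 1.89 over the mitotic members and 0.45 over the S phase members. The mitotic sum was 230 and 232 CPM in eTreg, against 52.4 and 70.7 CPM in cTreg, a ratio of 3.75, and the S phase sum was 727 and 813 CPM in eTreg, against 660 and 688 CPM in cTreg, a ratio of 1.14. Of the mitotic sum in eTreg, Mki67 made up 87.0 and 84.4 CPM and Top2a 39.7 and 44.9 CPM.

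Among S phase members the smallest p belonged to Mcm6, a helicase subunit, with 157 and 203 CPM in eTreg, against 94.3 and 94.1 CPM in cTreg (log2 fold change 0.93 ± 0.15 SE, edgeR adjusted p = 9.8e-05). Tk1, the thymidine kinase of nucleotide salvage, had 17.4 and 15.9 CPM in eTreg, against 7.43 and 6.84 CPM in cTreg (1.22 ± 0.22, edgeR adjusted p = 0.000249). Tyms, which makes thymidylate, had 13.9 and 10.9 CPM in eTreg, against 3.95 and 4.76 CPM in cTreg (1.51 ± 0.28, edgeR adjusted p = 0.000342). For these 3 genes both eTreg libraries were above both cTreg libraries. Rrm2, the regulated subunit of ribonucleotide reductase, Gins2 of the replicative helicase and the factor E2f1 also rose, by log2 1.56, 0.95 and 0.86. Pcna did not pass, with 44.9 and 54.3 CPM in eTreg, against 52.7 and 56.3 CPM in cTreg, and neither did Mcm5, with 60.7 and 73.6 CPM against 62.1 and 59.7 CPM. Ccne1, the other cyclin of the G1 to S passage, fell, with 5.35 and 6.24 CPM in eTreg, against 11.6 and 9.21 CPM in cTreg (-0.84 ± 0.29, edgeR adjusted p = 0.0337).

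Mki67 had 87.0 and 84.4 CPM in eTreg, against 8.46 and 12.6 CPM in cTreg (log2 fold change 3.03 ± 0.53 SE, edgeR adjusted p = 0.000188). Ccnb2, a mitotic cyclin, had 6.31 and 5.95 CPM in eTreg, against 1.32 and 1.19 CPM in cTreg (2.28 ± 0.43, edgeR adjusted p = 0.000371). Kif23, a motor of the central spindle needed to split the daughter cells, had 12.6 and 9.31 CPM in eTreg, against 2.35 and 2.48 CPM in cTreg (2.18 ± 0.47, edgeR adjusted p = 0.00145). The groups were far apart for all 3. Ccnb1 rested on few reads, 22 in eTreg and 2 in cTreg, a ratio of 11.4 per read sequenced with an exact 95% interval of 2.80 to 100 that covers counting error only. Top2a, the topoisomerase that untangles sister chromosomes, had 39.7 and 44.9 CPM in eTreg, against 9.50 and 15.3 CPM in cTreg (1.78 ± 0.56, edgeR adjusted p = 0.0213). Cenpe and Cenpf of the kinetochore, the spindle motor Kif11 and the spindle factor Tpx2 rose by log2 2.44, 2.79, 2.21 and 2.83.

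Among other genes of the cell cycle, 13 of 48 S phase genes rose and 1 fell, and 21 of 53 mitotic genes rose and none fell, with Racgap1, a partner of Kif23 in cell division, at 2.64 and Chaf1a, a histone chaperone of replication, at 1.37 on the log2 scale. The summed CPM of these 53 mitotic genes had a ratio of 0.914 for eTreg over cTreg, although 51 of them had a log2 fold change above 0. The sum over 8 B cell markers was 62.5 and 62.0 CPM in eTreg, against 14.3 and 15.8 CPM in cTreg. Of these 8, 3 had both eTreg libraries above both cTreg libraries and 2 had both below, shares that are 38.2% and 35.4% among all tested genes. What part these markers have in the result was not tested. Leaving out cTreg library 1 left 9 of the 23 member calls, and leaving out eTreg library 2 left 14 of them.

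In conventional T cells the same contrast of gates, Teff against Tnaive, gave more calls. Mitotic members rose in 18 of 21 cases and S phase members in 10 of 19, none fell, and over all genes 21.2% were called higher and 14.0% lower. The median log2 fold change was 2.93 over the mitotic members and 0.69 over the S phase members. The mitotic sum ratio was 5.87 and the S phase sum ratio 1.28.

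Tk1 had 11.3 and 9.49 CPM in Teff, against 2.04 and 1.40 CPM in Tnaive (log2 fold change 2.59 ± 0.28 SE, edgeR adjusted p = 5.67e-07). Mcm6 had 149 and 180 CPM in Teff, against 84.2 and 84.0 CPM in Tnaive (0.97 ± 0.15, edgeR adjusted p = 5.78e-05). Rrm2 had 26.3 and 19.2 CPM in Teff, against 2.85 and 3.10 CPM in Tnaive (2.93 ± 0.48, edgeR adjusted p = 7.21e-05). Both Teff libraries were above both Tnaive libraries in each of these. Mcm5, another helicase subunit, had 79.4 and 79.9 CPM in Teff, against 50.5 and 48.3 CPM in Tnaive (0.69 ± 0.12, edgeR adjusted p = 0.000104). The helicase loader Cdc6 and the helicase activator Cdc45 rose by log2 2.81 and 1.37. Pcna did not pass, with 58.6 and 68.8 CPM in Teff, against 58.6 and 61.4 CPM in Tnaive.

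Ccnb2 had 12.9 and 10.6 CPM in Teff, against 0.611 and 0.699 CPM in Tnaive (log2 fold change 4.14 ± 0.46 SE, edgeR adjusted p = 7.47e-07). Mki67 had 120 and 91.9 CPM in Teff, against 6.11 and 6.79 CPM in Tnaive (4.03 ± 0.56, edgeR adjusted p = 1.38e-05). Aurkb, the kinase that corrects spindle attachment, had 5.28 and 5.02 CPM in Teff, against 0.305 and 0.300 CPM in Tnaive (4.04 ± 0.58, edgeR adjusted p = 1.82e-05). These mitotic genes were near the bottom of their range in both Tnaive libraries. Top2a had 72.3 and 63.2 CPM in Teff, against 9.78 and 10.7 CPM in Tnaive (2.73 ± 0.57, edgeR adjusted p = 0.000949). The mitotic members without a call were Ccnb1, Plk1, a kinase of mitotic entry, and Kif23, which had 12.4 and 9.21 CPM in Teff, against 11 and 16.3 CPM in Tnaive. Ccnb1 had 1.66 and 0.639 CPM in Teff, against 0.204 and 0.499 CPM in Tnaive (1.66, edgeR adjusted p = 0.0672).

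Among other cell cycle genes of the S phase list 20 of 48 rose and 2 fell, and of the mitotic list 40 of 53 rose and 1 fell. The summed CPM of these 53 mitotic genes had a ratio of 1.15 for Teff over Tnaive, and 50 of them had a log2 fold change above 0. Of the marker genes of other cells, 9 of 10 myeloid and dendritic and 5 of 6 CD8 and NK markers had both Teff libraries above both Tnaive libraries, and 1 of each list had both below. In the first list the sum was 313 and 96.0 CPM in Teff, against 11.8 and 16.3 CPM in Tnaive, and in the second it was 344 and 243 CPM in Teff, against 29.2 and 30.1 CPM in Tnaive. Germinal centre B and plasma cell markers summed to 53.7 and 66.9 CPM in Teff, against 10.5 and 9.39 CPM in Tnaive, with 5 of 6 above. B cell markers summed to 69.0 and 76.4 CPM in Teff, against 8.35 and 9.29 CPM in Tnaive, with 4 of 8 above and 1 below. Among all tested genes 38.3% were above in this way and 36.0% below. What part these markers have in the result was not tested.

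**Figure D3:**
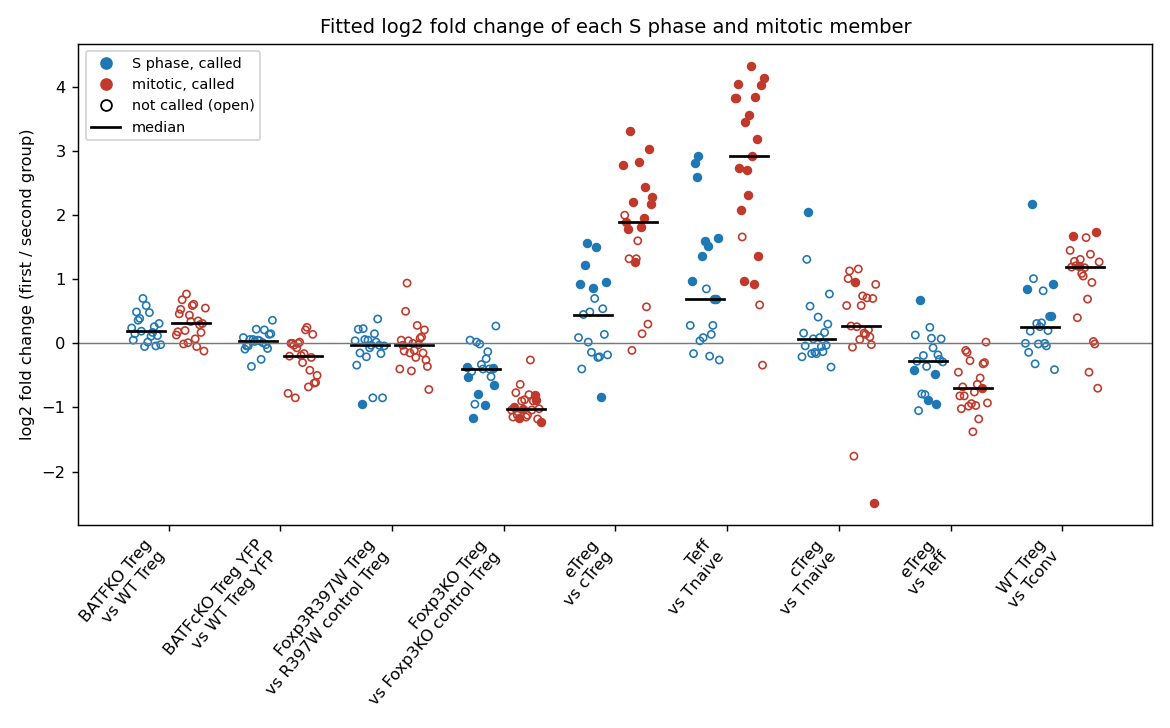
Fitted log2 fold change of each S phase and mitotic member on the vertical axis, for the 9 comparisons of 2 groups on the horizontal axis, with filled points for called members, open points for the others and a line at the median. The mitotic median is 2.93 for Teff against Tnaive and 1.89 for eTreg against cTreg, and -1.02 for Foxp3KO Treg against their controls.

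Members called higher in both effector groups numbered 18, which is 90.0% of the 20 called in eTreg and 62.1% of the 29 called in Teff. Over all genes 1751 were called higher in both, 76.1% of the 2302 in eTreg and 67.5% of the 2595 in Teff. The difference between the 2 activation steps was tested itself, as eTreg minus cTreg less Teff minus Tnaive on the log2 scale, where 5.42% of all genes were called in either direction. In each direction 1 member was called. For Kif23 the difference was 2.52 ± 0.62 (SE, edgeR adjusted p = 0.0185). The effector libraries of eTreg and Teff ran from 9.21 to 12.6 CPM. Tnaive library 1, at 11 CPM, was within that range, and Tnaive library 2, at 16.3 CPM, was above it. Both cTreg libraries, at 2.35 and 2.48 CPM, were below it. For Tk1 it was -1.37 ± 0.36 (edgeR adjusted p = 0.0311), with Tnaive the lowest group and cTreg already at 7.43 and 6.84 CPM. Of the 21 mitotic members, 19 had a difference below 0, with a median of -1.04, and 18 of 19 S phase members did, with a median of -0.24. Leaving out any 1 of Tnaive library 2, cTreg library 1, cTreg library 2 or eTreg library 1 left no member called, and leaving out Teff library 1 left 1.

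Central Treg and naive conventional T cells, both CCR7hi CD62Lhi, differed in few calls. In cTreg 1 S phase member rose, and 1 mitotic member rose and 1 fell, where 7.91% of all genes were called higher and 4.29% lower. Tk1 rose, with 7.43 and 6.84 CPM in cTreg, against 2.04 and 1.40 CPM in Tnaive (log2 fold change 2.05 ± 0.29 SE, edgeR adjusted p = 4.36e-05). Kif20a, a motor that acts with Aurkb late in mitosis, rose, with 7.90 and 8.32 CPM in cTreg, against 3.67 and 4.69 CPM in Tnaive (0.95 ± 0.30, edgeR adjusted p = 0.0476). Kif23 fell, with 2.35 and 2.48 CPM in cTreg, against 11 and 16.3 CPM in Tnaive (-2.49 ± 0.47, edgeR adjusted p = 0.000883). For each of the 3 the libraries of the groups did not overlap. Mki67, in contrast, had 8.46 and 12.6 CPM in cTreg, against 6.11 and 6.79 CPM in Tnaive, and its log2 fold change of 0.70 did not pass (edgeR adjusted p = 0.643). Top2a had 9.50 and 15.3 CPM in cTreg, against 9.78 and 10.7 CPM in Tnaive, and Mcm5 had 62.1 and 59.7 CPM against 50.5 and 48.3 CPM, both without a call. Kif20a shares exon sequence with Cdc23 on the other strand. In the further cell cycle lists 2 of 48 S phase genes rose and 1 fell, and 1 of 53 mitotic genes rose and none fell. Leaving out any 1 of the 4 libraries left 2 members called.

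Effector Treg against effector conventional cells showed 1 mitotic member lower and none higher, and 1 S phase member higher and 4 lower, where 8.21% of all genes were called higher and 7.26% lower. Tk1 rose, with 17.4 and 15.9 CPM in eTreg, against 11.3 and 9.49 CPM in Teff (log2 fold change 0.68 ± 0.21 SE, edgeR adjusted p = 0.0347). The helicase subunit Mcm2 fell, with 71.8 and 77.8 CPM in eTreg, against 104 and 105 CPM in Teff (-0.48 ± 0.11, edgeR adjusted p = 0.00301). Mcm3 fell, with 56.5 and 62.7 CPM in eTreg, against 80.0 and 78.1 CPM in Teff (-0.41 ± 0.11, edgeR adjusted p = 0.0188). So the salvage kinase and the helicase subunits Mcm2 and Mcm3 were called in opposite directions, each with groups that did not overlap. The subunits Mcm4 to Mcm7 were not called. Mcm6 had 157 and 203 CPM in eTreg, against 149 and 180 CPM in Teff, and Mcm5 had 60.7 and 73.6 CPM against 79.4 and 79.9 CPM. Ccne1 fell, with 5.35 and 6.24 CPM in eTreg, against 10.7 and 11.7 CPM in Teff (-0.95 ± 0.29, edgeR adjusted p = 0.0298). E2f1 fell, with 4.11 and 5.76 CPM in eTreg, against 9.28 and 9.03 CPM in Teff (-0.89 ± 0.27, edgeR adjusted p = 0.0309). Cdc20, which lets cells leave mitosis, fell, with 5.35 and 6.72 CPM in eTreg, against 9.58 and 9.94 CPM in Teff (-0.69 ± 0.21, edgeR adjusted p = 0.0337). The 2 eTreg libraries were below both Teff libraries for all 3. The 21 mitotic members had a median of -0.69, with 20 below 0, and their sum was 230 and 232 CPM in eTreg, against 371 and 296 CPM in Teff. Mki67 had 87.0 and 84.4 CPM in eTreg, against 120 and 91.9 CPM in Teff (-0.30, edgeR adjusted p = 0.789). Top2a had 39.7 and 44.9 CPM in eTreg, against 72.3 and 63.2 CPM in Teff (-0.68, edgeR adjusted p = 0.492). Neither was called, and no library of eTreg exceeded one of Teff for either. Of the other cell cycle genes, none of 48 S phase genes rose and 2 fell, and of 53 mitotic genes 2 rose and 2 fell. The summed CPM of these 53 mitotic genes had a ratio of 1.27 for eTreg over Teff, although 46 of them had a log2 fold change below 0. The marker sums of the Teff libraries given above touch this comparison too, and their part in it was not tested. Without 1 library, the 7 member calls became 0 without eTreg library 1, 3 without eTreg library 2, 1 without Teff library 1 and 3 without Teff library 2.

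Unfractionated Treg were set against Tconv of the same reporter. Of the S phase members 4 rose in WT Treg and of the mitotic members 3 rose, none fell, and over all genes 12.1% were called higher and 6.68% lower. Tk1 rose, with 16.2 and 12.6 CPM in WT Treg, against 3.71 and 2.73 CPM in Tconv (log2 fold change 2.17 ± 0.28 SE, edgeR adjusted p = 1.26e-05). Mcm6 rose, with 149 and 125 CPM in WT Treg, against 80.0 and 72.4 CPM in Tconv (0.85 ± 0.16, edgeR adjusted p = 0.000643). Mcm5 rose, with 85.9 and 79.0 CPM in WT Treg, against 55.5 and 66.6 CPM in Tconv (0.43 ± 0.12, edgeR adjusted p = 0.0141). Neither Tk1 nor Mcm6 nor Mcm5 had a WT Treg library within the range of Tconv. Gins2 rose, with 5.03 and 4.13 CPM in WT Treg, against 1.95 and 2.89 CPM in Tconv (0.92 ± 0.28, edgeR adjusted p = 0.0294).

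Kif20a rose, with 13.5 and 8.26 CPM in WT Treg, against 5.31 and 4.18 CPM in Tconv (log2 fold change 1.21 ± 0.33 SE, edgeR adjusted p = 0.0126). Mki67 rose, with 114 and 38.7 CPM in WT Treg, against 32.4 and 14.5 CPM in Tconv (1.73 ± 0.51, edgeR adjusted p = 0.0229). Aurkb rose by log2 1.68. In Mki67 the gap between the 2 WT Treg libraries was larger than that between the nearest libraries of the groups. Top2a did not pass, with 78.6 and 23.8 CPM in WT Treg, against 31.0 and 12 CPM in Tconv (1.28, edgeR adjusted p = 0.137). Kif23 was at -0.70 (edgeR adjusted p = 0.297), with 12.8 and 7.10 CPM in WT Treg, against 21.4 and 11.4 CPM in Tconv. Further cell cycle genes gave 6 of 48 S phase genes that rose and 2 that fell, and 7 of 53 mitotic genes that rose and none that fell. The 8 member calls became 4 without WT Treg library 1, 15 without WT Treg library 2 and 5 without Tconv library 1. Fitted on the 4 libraries of the comparison alone, 1 member was called.

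**Figure D4:**
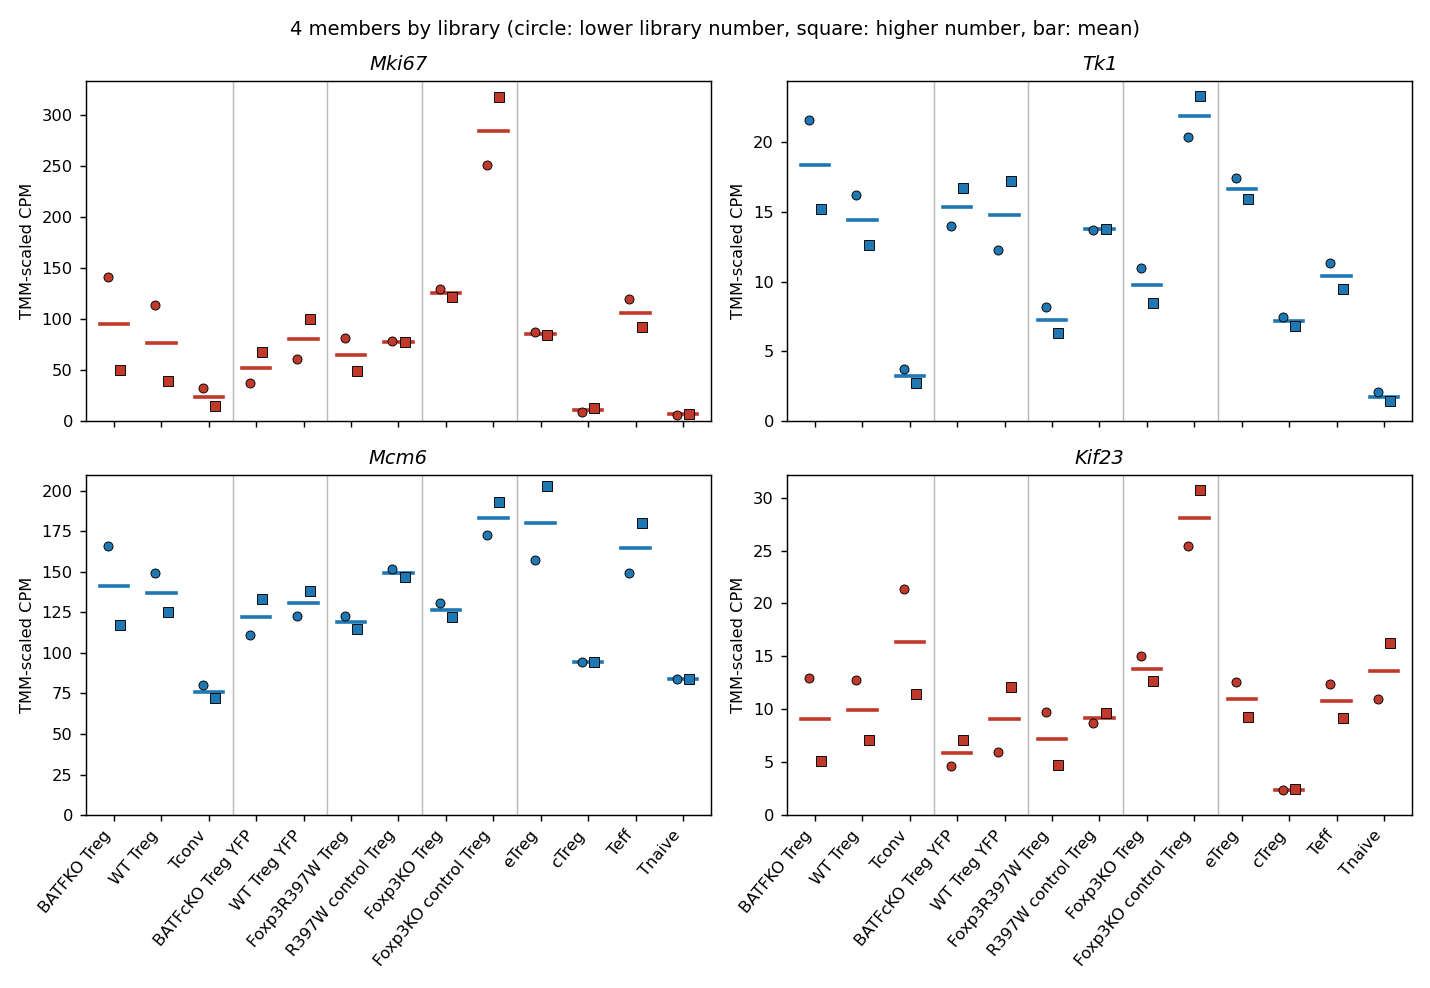
TMM-scaled CPM of Mki67, Tk1, Mcm6 and Kif23 on the vertical axes, by group on the horizontal axis, with 1 point a library and a bar at the mean, for 4 genes chosen after their values were seen. Tk1 is lowest in Tnaive and Tconv, at 1.40 to 3.71 CPM, and Kif23 is lowest in cTreg, at 2.35 and 2.48 CPM.

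The gene Tk1 lies at chr11:117815526-117826092 on the minus strand and Kif23 at chr9:61915905-61946774 on the minus strand. Tk1 passed the test in 7 of the 9 comparisons of 2 groups, higher in 5 and lower in 2, more than any other member, while Mcm6, Aurkb and Gins2 passed in 4. Exons of Tk1 overlap those of Afmid, an enzyme gene of tryptophan breakdown, on the other strand, and no source used here tells if strand was respected in counting. Afmid ran from 20.1 to 37.5 CPM over the 26 libraries. Its log2 fold changes were 0.38 for eTreg against cTreg and 0.66 for Teff against Tnaive, both called (edgeR adjusted p = 0.0201 and 0.000232), and 0.27 for cTreg against Tnaive, 0.30 for WT Treg against Tconv, -0.24 for Foxp3KO Treg against their controls, -0.09 for Foxp3R397W Treg against theirs and -0.01 for eTreg against Teff, none of them called. Kif23 has no overlapping coding gene. Of all members, 37 were called in at least 1 of the 9 comparisons, and Cdk2, Mcm4, Mcm7, Pcna, Ccne2, Cdt1 and Cdkn1b in none.

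Loss of Foxp3 function was examined in the mosaic mice. In Foxp3KO Treg 6 of 21 mitotic and 7 of 19 S phase members fell and none rose, where 2.62% of all tested genes were called higher and 6.39% lower. All 21 mitotic members had a log2 fold change below 0, with a median of -1.02 and a range of -1.22 to -0.26. Of the S phase members 16 of 19 were below 0, with a median of -0.40, while the median over all genes was 0.01. The mitotic sum averaged 406 ± 11.4 CPM in Foxp3KO Treg and 804 ± 127 CPM in their controls (SD, n = 2 each), a ratio of 0.504. The S phase sum was 1241 and 1226 CPM in Foxp3KO Treg, against 1389 and 1482 CPM in their controls, a ratio of 0.859.

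Tk1 fell, with 11 and 8.48 CPM in Foxp3KO Treg, against 20.4 and 23.3 CPM in their controls (log2 fold change -1.17 ± 0.19 SE, edgeR adjusted p = 0.000551). Tyms had 12.1 and 10.5 CPM in Foxp3KO Treg, against 19.1 and 24.9 CPM in their controls (-0.96 ± 0.23, edgeR adjusted p = 0.00999). Mcm6 had 131 and 122 CPM in Foxp3KO Treg, against 173 and 193 CPM in their controls (-0.53 ± 0.15, edgeR adjusted p = 0.0293). For these 3 genes both Foxp3KO libraries were below both control libraries. Mcm5 had 84.6 and 78.1 CPM in Foxp3KO Treg, against 106 and 107 CPM in their controls (-0.39 ± 0.11, edgeR adjusted p = 0.0298), and Cdc45, Mcm3 and Gins2 fell by log2 -0.79, -0.37 and -0.65. Pcna did not pass, with 360 and 367 CPM in Foxp3KO Treg, against 352 and 378 CPM in their controls. These Pcna levels stand above the 44.9 to 125 CPM of the other 22 libraries, and Pcna has named pseudogenes that could take or give reads.

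Ccnb2 fell, with 7.75 and 7.26 CPM in Foxp3KO Treg, against 15.4 and 19.6 CPM in their controls (log2 fold change -1.22 ± 0.29 SE, edgeR adjusted p = 0.00933). Cdc20 had 9.03 and 7.71 CPM in Foxp3KO Treg, against 13.5 and 15.7 CPM in their controls (-0.80 ± 0.18, edgeR adjusted p = 0.00824). Plk1 had 9.03 and 8.32 CPM in Foxp3KO Treg, against 14.5 and 17.5 CPM in their controls (-0.88 ± 0.24, edgeR adjusted p = 0.0219). The mutant libraries lay close together and below both controls in each case. Ccnb1 had 4.83 and 4.29 CPM in Foxp3KO Treg, against 9.35 and 11.2 CPM in their controls (-1.17 ± 0.32, edgeR adjusted p = 0.0259), and the checkpoint kinase-like protein Bub1b and Aurkb fell by log2 -1.02 and -0.99. Mki67 had 129 and 122 CPM in Foxp3KO Treg, against 251 and 318 CPM in their controls, and its log2 fold change of -1.18 did not pass (edgeR adjusted p = 0.122). Top2a did not pass either, with 84.7 and 80.6 CPM in Foxp3KO Treg, against 124 and 157 CPM in their controls (-0.77, edgeR adjusted p = 0.435).

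Of the other cell cycle genes, 4 of 48 S phase and 8 of 53 mitotic genes fell and none rose, among them the phosphatase Cdc25b at -1.09 and the kinase Cit at -0.83 on the log2 scale. The summed CPM of these 53 mitotic genes had a ratio of 0.891 for Foxp3KO Treg over their controls, and 50 of them had a log2 fold change below 0. Germinal centre B and plasma cell markers summed to 53.0 and 49.5 CPM in Foxp3KO Treg, against 64.4 and 62.2 CPM in their controls, with 2 of 6 genes below in both libraries and none above, and B cell markers to 15.8 and 12.9 CPM in Foxp3KO Treg, against 25.9 and 33.8 CPM in their controls, with 3 of 8 above and 2 below. Among all tested genes 36.6% were above in this way and 33.8% below. What part these markers have in the result was not tested. The 13 calls became 2 without Foxp3KO library 1, 1 without Foxp3KO library 2, 4 without control library 5 and 1 without control library 6. They became 34 lower and 2 higher when these 4 libraries were fitted alone, and 29 lower and 2 higher when the germline set was left out. Over all 12227 genes, 781 lower and 320 higher became 2188 lower and 1933 higher when fitted alone. Without the germline set, 1414 of all genes were lower and 1115 higher.

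In Foxp3R397W Treg 1 S phase member, Tk1, fell, and no mitotic member was called, where 2.18% of all genes were called higher and 3.94% lower. Tk1 had 8.15 and 6.30 CPM in Foxp3R397W Treg, against 13.7 and 13.8 CPM in their controls (log2 fold change -0.94 ± 0.24 SE, edgeR adjusted p = 0.0264), and leaving out any 1 of the 4 libraries ended the call. Mki67 had 81.5 and 48.8 CPM in Foxp3R397W Treg, against 78.4 and 77.3 CPM in their controls (-0.26, edgeR adjusted p = 0.897). Mcm5 had 62.9 and 65.7 CPM in Foxp3R397W Treg, against 75.5 and 67.9 CPM in their controls (-0.16, edgeR adjusted p = 0.616). The mutant Mki67 libraries lay on either side of the controls, and the median over the mitotic members was -0.03. Top2a had 59.1 and 42.5 CPM in Foxp3R397W Treg, against 51.9 and 58.0 CPM in their controls, groups that overlapped. Of the other cell cycle genes, Timeless, which steadies replication forks, rose by log2 0.78 and Cdc25b fell by 0.79. Foxp3 itself had 359 and 343 CPM in Foxp3R397W Treg, against 452 and 380 CPM in their controls. Kit, a progenitor marker, had 26.2 and 10.1 CPM in Foxp3R397W Treg, against 2.75 and 3.21 CPM in their controls, and 2 of 6 thymocyte and progenitor markers were above in both libraries, as were 23.8% of all tested genes, and their part in the result was not tested.

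The 2 Foxp3 alleles were compared by the difference of their effects, Foxp3KO less Foxp3R397W. No member was called in edgeR's test, where 0.0164% of all genes were, and DESeq2 called 0 members. An unadjusted p below 0.05 was found for 5 members with a negative difference and none with a positive one. Among all 12227 genes there were 216 negative and 191 positive at that threshold. All 21 mitotic members had a difference below 0, with a median of -0.90. For Mki67 the difference was -0.92 and for Tk1 -0.23, neither of them called.

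Loss of BATF was measured in a germline and a Treg-restricted mutant. Between BATFKO Treg and WT Treg no member was called in edgeR's test, where 1.05% of all genes were called higher and 1.64% lower. Unadjusted p was below 0.05 for 3 members, all higher, against 597 higher and 863 lower among all 12227 genes, and DESeq2 called 1, Ccnd2. The S phase members had a median log2 fold change of 0.19 and a range of -0.05 to 0.70, and the mitotic members a median of 0.31 and a range of -0.12 to 0.77, with 16 of 19 and 18 of 21 above 0. Mki67 had 141 and 49.6 CPM in BATFKO Treg, against 114 and 38.7 CPM in WT Treg (0.31, edgeR adjusted p = 0.946). Top2a had 115 and 33.5 CPM in BATFKO Treg, against 78.6 and 23.8 CPM in WT Treg (0.53, edgeR adjusted p = 0.855). For both genes library 1 was the higher in each group, and the groups overlapped, which does not show that they were alike. Tk1 had 21.6 and 15.2 CPM in BATFKO Treg, against 16.2 and 12.6 CPM in WT Treg, and Mcm5 had 92.3 and 87.3 CPM against 85.9 and 79.0 CPM, neither with a call. Of the other cell cycle genes, none of 48 S phase and none of 53 mitotic genes was called, with medians of 0.18 and 0.16.

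Between BATFcKO Treg YFP and WT Treg YFP no member was called in edgeR's test either, where 0.319% of all genes were called higher and 1.72% lower. No member had an unadjusted p below 0.05, against 389 higher and 916 lower among all 12227 genes, and DESeq2 called 0 members. The median was 0.04 over the S phase members and -0.19 over the mitotic members. Mki67 had 36.7 and 67.4 CPM in BATFcKO Treg YFP, against 60.3 and 100 CPM in WT Treg YFP (-0.62, edgeR adjusted p = 0.763). Top2a had 33.3 and 64.8 CPM in BATFcKO Treg YFP, against 34.8 and 63.4 CPM in WT Treg YFP (0.00, edgeR adjusted p = 1). Both genes overlapped between the groups. The germline effect less the conditional effect was not called for any member in edgeR's test, as for 0% of all genes, and DESeq2 called 0 members. An unadjusted p below 0.05 was found for 1 member, with a positive difference, against 422 positive and 211 negative among all 12227 genes. The median difference over the mitotic members was 0.63.

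Pcna and Ccnb1 were near the ends of the range of levels. Pcna had 80.8 and 110 CPM in Foxp3R397W Treg, against 89.7 and 94.8 CPM in their controls, and 105 and 95.3 CPM in BATFKO Treg, against 111 and 97.3 CPM in WT Treg. It had 125 and 83.1 CPM in BATFcKO Treg YFP, against 106 and 71.9 CPM in WT Treg YFP. In each pair the libraries overlapped, as they did for WT Treg against Tconv, where Tconv had 99.1 and 111 CPM. Ccnb1 had 0.958 and 0.293 CPM in Foxp3R397W Treg, against 0.305 and 0.321 CPM in their controls. It had 0.935 and 0.333 CPM in BATFKO Treg, against 0.952 and 0.330 CPM in WT Treg, and 0.354 and 0.642 CPM in Tconv. Over the 22 libraries outside the Foxp3KO set Ccnb1 ran from 0.0940 to 1.66 CPM, against 4.29 to 11.2 CPM within it, and it too has a named pseudogene.

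Among the G1 regulators, cyclin D2 (Ccnd2) and cyclin D3 (Ccnd3), which pair with the kinases that open the cycle, were called only where eTreg were involved among the 9 comparisons. Ccnd2 fell in eTreg, with 680 and 615 CPM, against 1075 and 1053 CPM in cTreg (log2 fold change -0.72 ± 0.14 SE, edgeR adjusted p = 0.000408). Ccnd3 fell in eTreg, with 123 and 124 CPM, against 191 and 165 CPM in cTreg (-0.53 ± 0.19, edgeR adjusted p = 0.0393), and against 220 and 173 CPM in Teff (-0.67 ± 0.19, edgeR adjusted p = 0.0188). Both cyclins were lower in the Treg group in which most mitotic members were higher. In Teff against Tnaive neither passed, with Ccnd2 at 926 and 746 CPM in Teff, against 969 and 841 CPM in Tnaive, and Ccnd3 at 220 and 173 CPM in Teff, against 180 and 173 CPM in Tnaive. The difference of the activation steps was -0.60 for Ccnd2 (edgeR adjusted p = 0.0815) and -0.68 for Ccnd3 (edgeR adjusted p = 0.199).

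In the mutants Ccnd2 had 916 and 852 CPM in BATFKO Treg, against 673 and 584 CPM in WT Treg, groups that did not overlap, and its log2 fold change of 0.49 did not pass (edgeR adjusted p = 0.063). It passed in 4 of 12 alternatives, among them DESeq2 (adjusted p = 0.0074), and over all 12 the adjusted p ran from 3.84e-05 to 1 and the log2 fold change was 0.41 to 0.60. Elsewhere it had 482 and 450 CPM in Foxp3KO Treg, against 500 and 468 CPM in their controls, and 720 and 693 CPM in Foxp3R397W Treg, against 867 and 727 CPM in their controls. Ccnd3 had 193 and 232 CPM in Foxp3KO Treg, against 177 and 170 CPM in their controls. Against WT Treg, with 172 and 235 CPM, Ccnd3 had 153 and 234 CPM in BATFKO Treg. None of these was called. Ccnd3 overlaps Bysl on the other strand and has a named pseudogene.

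Cdkn1a encodes p21, the kinase inhibitor that p53 switches on. It had 3.54 and 2.69 CPM in eTreg, against 0.376 and 0.594 CPM in cTreg (log2 fold change 2.66 ± 0.85 SE, edgeR adjusted p = 0.0218). In Teff it had 3.03 and 3.38 CPM, against 0.102 and 0 CPM in Tnaive, and the call (edgeR adjusted p = 0.00175) rested on 68 reads in Teff and 1 in Tnaive, a ratio of 66.3 with an exact 95% interval of 11.5 to 2656. In WT Treg it had 9.92 and 20.0 CPM, against 2.30 and 6.26 CPM in Tconv (1.77 ± 0.57, edgeR adjusted p = 0.0359). The inhibitor was called higher in the same 3 comparisons in which Mki67 was. Between libraries of a group the 2 genes did not always go together. In WT Treg library 1 had more Mki67, with 114 and 38.7 CPM, and less Cdkn1a. The other groups of the germline and YFP sets were opposed in this way too, and the remaining groups went either way. Cdkn1a had 7.75 and 6.59 CPM in Foxp3KO Treg, against 13.5 and 12.2 CPM in their controls. In Foxp3R397W Treg it had 2.87 and 3.81 CPM, against 7.64 and 7.07 CPM in their controls, without a call in either. Cdkn1b, which encodes p27, was called in none of the 9 comparisons. It had 286 and 246 CPM in eTreg, against 263 and 242 CPM in cTreg, and 225 and 220 CPM in Teff, against 230 and 235 CPM in Tnaive. In Foxp3KO Treg it had 352 and 386 CPM, against 321 and 321 CPM in their controls.

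**Figure D5:**
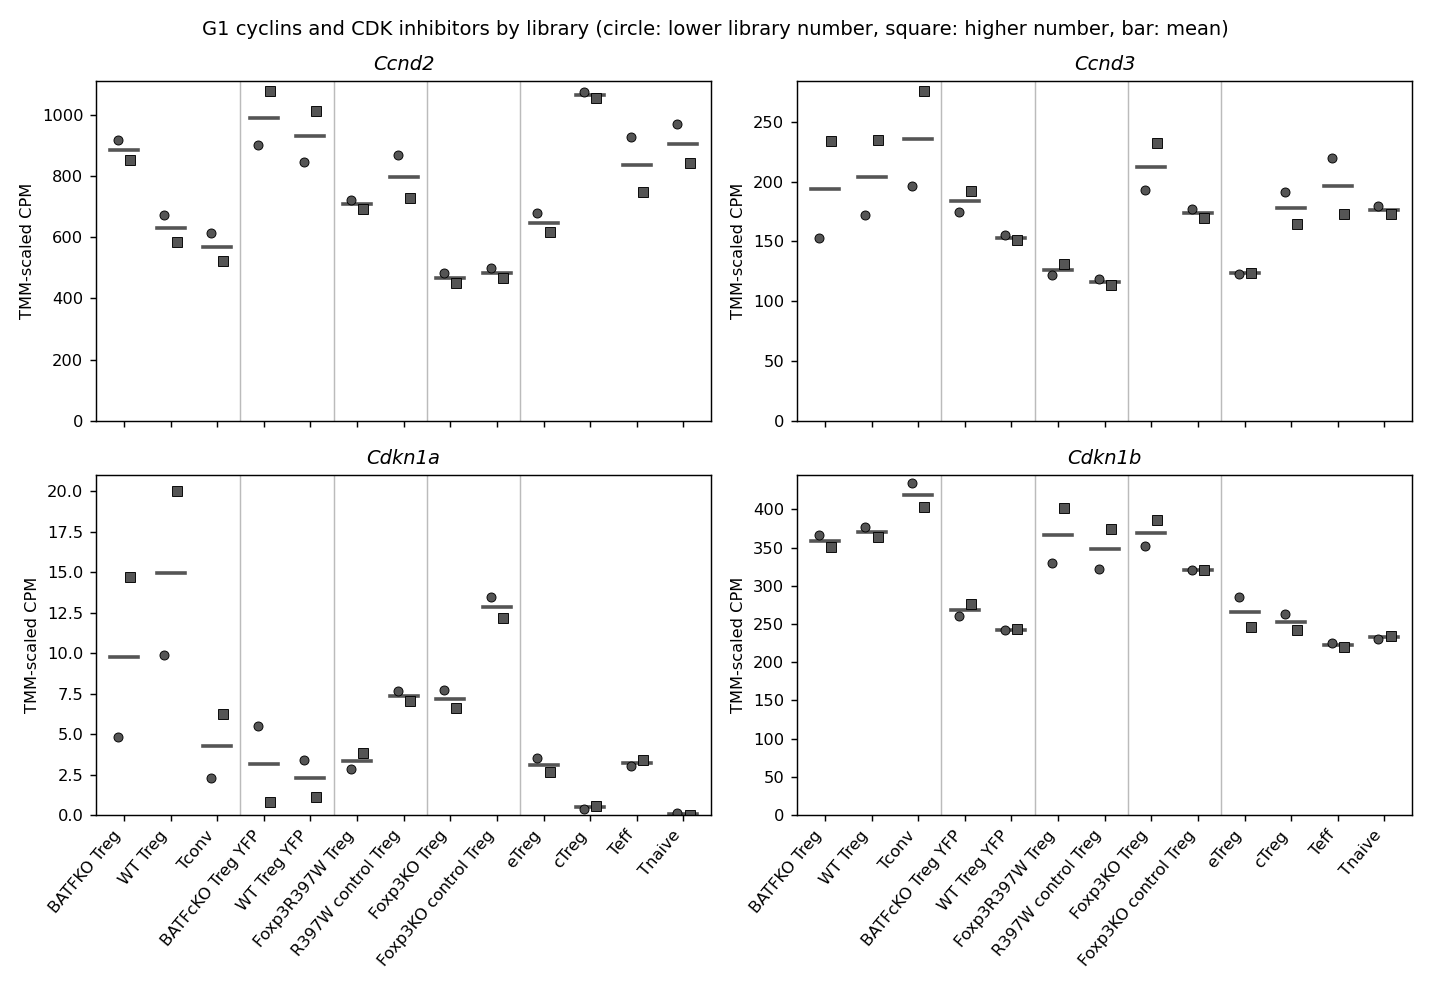
TMM-scaled CPM of Ccnd2, Ccnd3, Cdkn1a and Cdkn1b on the vertical axes, by group on the horizontal axis, with 1 point a library and a bar at the mean. Ccnd2 is at 680 and 615 CPM in eTreg, against 1075 and 1053 CPM in cTreg, and Cdkn1a is at 0.102 and 0 CPM in Tnaive.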

How the data were processed

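The authors deposited counts of reads per gene symbol, with 24411 genes and 26 libraries of poly(A) RNA from sorted T cells. The submitters' processing notes name STAR 2.6.1c and the build mm10. The counting tool, its annotation and its strand setting are not given in the sources used here. A directional Ultra or UltraII kit is named per the labels. Of the table's columns, 4 matched no sample label and were not used.

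Counts were fitted with edgeR 4.0.16 (R 4.3.3, limma 3.58.1): TMM scaling, edgeR's expression filter, which removed 12184 genes, 1 coefficient per group and the robust quasi-likelihood test with 13 residual degrees of freedom. P-values were Benjamini-Hochberg adjusted over 12227 genes, with a call below 0.05. Standard errors are the log2 fold change divided by the root of the test's F, hence approximate. The depth of 5615929 to 34613707 reads limits the precision of low genes. Exact intervals cover counting error only. The fit was tested on simulated data.

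All members may be named. Library values are given for the called members with the smallest p, at most 6 in each direction, and for Mki67, Top2a, Ccnb1, Mcm5, Pcna and the G1 regulators. The members, lists and rules were chosen with earlier results of these data known. Alternatives were DESeq2 1.42.0, its size factors, no filter, the libraries of a comparison alone, the Foxp3KO set or the germline set (BATFKO Treg, WT Treg and Tconv) left out, a replicate block, and each library left out in turn, where a lone library is assumed to vary like the other groups. Gene positions and exon lengths are those of GENCODE M21 on the same build. Exons of 12 members overlap a coding gene on the other strand (Ccna2, Ccnd3, Ccne2, Cdc20, Cdc45, Cdk2, Gins2, Kif20a, Mcm7, Nusap1, Tk1 and Ube2c), and 5 members have named pseudogenes (Ccnb1, Ccnb2, Ccnd3, Pcna and Tyms), so their counts are less certain.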

Additional observations from a re-analysis of the deposited data

Results flagged for a closer look

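For 2 members the change from the CCR7hi to the CCR7lo gate differed between Treg and conventional T cells by a test of the difference itself. For Kif23 the log2 fold change of eTreg over cTreg less that of Teff over Tnaive was 2.52 ± 0.62 (SE, edgeR adjusted p = 0.0185). It had 12.6 and 9.31 CPM in eTreg, against 2.35 and 2.48 CPM in cTreg, and 12.4 and 9.21 CPM in Teff, against 11 and 16.3 CPM in Tnaive. For Tk1 the same difference was -1.37 ± 0.36 (SE, edgeR adjusted p = 0.0311). It had 17.4 and 15.9 CPM in eTreg, against 7.43 and 6.84 CPM in cTreg, and 11.3 and 9.49 CPM in Teff, against 2.04 and 1.40 CPM in Tnaive. The cause of neither difference was tested.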

How the results depend on the processing

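No called member changed direction under any alternative run: of 935 alternative values for the 86 called results, 747 stayed past the threshold and 188 did not. Of 1128 for 94 results not called, 1004 kept direction and stayed without a call, 47 passed and 77 changed direction. With 1 library left out, the log2 fold change ran from -0.63 to 1.65 for Top2a and -0.64 to 1.31 for Mki67 in BATFKO Treg, from -0.56 to 0.50 for Top2a in BATFcKO Treg YFP, where the libraries numbered 1 alone gave -0.07, and from -0.67 to 0.07 for Mki67 in Foxp3R397W Treg.

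The number of members called moved by over 1.5 times as follows. For BATFKO Treg against WT Treg it was 0, and 1 with DESeq2, with DESeq2 size factors or with no filter, and 0 to 1 with 1 library left out. For BATFcKO Treg YFP against WT Treg YFP it was 0, and 1 without the germline set. For Foxp3R397W Treg it was 1, with 4 when fitted alone, 2 without the germline set and 0 with any 1 library left out. For Foxp3KO Treg it was 13, with 36 alone, 31 without the germline set and 1 to 4 with 1 library left out. For eTreg against cTreg it was 23, and 9 to 18 with 1 library left out. For cTreg against Tnaive it was 3, with 8 alone and 7 without the germline set. For eTreg against Teff it was 7, with 17 alone, 19 without the germline set and 0 to 3 with 1 library left out. For WT Treg against Tconv it was 8, with 1 alone, 5 with no filter, 5 without the Foxp3KO set, 13 in the libraries numbered 1 alone, 5 in those numbered 2 alone and 4 to 15 with 1 library left out. For the difference of the activation steps it was 2, with 5 in DESeq2, 12 alone, 1 with no filter, 10 without the germline set and 0 to 2 with 1 library left out. Leaving out the germline set and taking the libraries of 1 number alone were chosen after seeing the data. Over all 12227 genes the calls, higher and lower, also moved when a comparison was fitted alone. They went from 1475 and 817 to 408 and 111 for WT Treg against Tconv. In eTreg against Teff 1004 and 888 became 1243 and 1088, and in cTreg against Tnaive 967 and 525 became 1697 and 1236. In Foxp3R397W Treg 267 and 482 became 569 and 847, and in Foxp3KO Treg 320 and 781 became 1933 and 2188. The difference of the activation steps went from 192 and 471 to 434 and 740. The cause of these moves was not tested.

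Equal library numbers are not said to pair samples. Same-numbered libraries deviated together with a correlation of 0.495 to 0.571 in the germline set, 0.242 in the YFP set and 0.08 to 0.233 in the CCR7 subsets. With a replicate block Top2a was at -0.01 in BATFcKO Treg YFP, and the calls numbered 3 for BATFKO Treg, all higher, 2 for BATFcKO Treg YFP, 9 for cTreg against Tnaive, 27 for eTreg against Teff, 22 for WT Treg against Tconv, 14 for the difference of the activation steps and 1 for the germline less the conditional effect. Among same-numbered libraries the mitotic sum ratio was 1.28 and 1.31 for BATFKO Treg over WT Treg. It was 0.785 and 0.843 for BATFcKO Treg YFP over WT Treg YFP, and 2.28 and 1.51 for WT Treg over Tconv. Depth limits Ccnb1, with 2 reads over both cTreg libraries, and Cdkn1a, with 1 read over both Tnaive libraries.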

Other observations

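Among other regulators of the cell cycle, outside the members, 44 genes were tested. In BATFKO Treg 4 of these rose and 0 fell, where 1.05% of all genes were called higher and 1.64% lower. The counts were 2 and 0 in Foxp3R397W Treg (2.18% and 3.94% of all genes) and 3 and 3 in Foxp3KO Treg (2.62% and 6.39%). In BATFcKO Treg YFP they were 1 and 1 (0.319% and 1.72%). Myb, a transcription factor of lymphoid progenitors and activated T cells, was higher in Treg of 3 mutants. It had 155 ± 7.49 CPM in BATFKO Treg and 73.3 ± 24.6 CPM in WT Treg (SD, n = 2 each, log2 fold change 1.08 ± 0.20 SE, edgeR adjusted p = 0.0044). In Foxp3R397W Treg it had 141 ± 1.75 CPM, against 71.8 ± 8.20 CPM in their controls (0.97 ± 0.20, edgeR adjusted p = 0.0057). In Foxp3KO Treg it had 163 ± 13 CPM, against 68.4 ± 0.335 CPM in their controls (1.25 ± 0.19, edgeR adjusted p = 0.000324). Cdkn2d, which encodes the kinase inhibitor p19, was called higher in the same 3 comparisons, by log2 0.51, 0.75 and 0.38. In BATFcKO Treg YFP, Myc rose by log2 0.54 and Rbl2, a pocket protein of resting cells, fell by 0.59.

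Of the same 44 regulators, 6 rose and 7 fell in eTreg against cTreg, where 18.8% of all genes were called higher and 12.3% lower. In Teff against Tnaive 12 rose and 5 fell (21.2% and 14.0% of all genes). The counts were 5 and 1 in cTreg against Tnaive (7.91% and 4.29%) and 5 and 2 in WT Treg against Tconv (12.1% and 6.68%). The effector gates separated inhibitors of the same family. Cdkn2c, which encodes p18, had 19.7 ± 2.71 CPM in eTreg and 2.38 ± 0.975 CPM in cTreg (SD, n = 2 each, log2 fold change 3.05 ± 0.26 SE, edgeR adjusted p = 3.95e-08). It had 18.5 ± 1.04 CPM in Teff and 4.03 ± 0.0867 CPM in Tnaive (2.20 ± 0.24, edgeR adjusted p = 6.93e-07). Cdkn2d fell in both, with 28.5 ± 0.449 CPM in eTreg and 81.5 ± 3.35 CPM in cTreg (-1.51 ± 0.10, edgeR adjusted p = 1.26e-09), and by log2 -0.95 in Teff against Tnaive. Myc, which drives growth ahead of division, had 61.8 ± 4.68 CPM in eTreg and 193 ± 1.54 CPM in cTreg (-1.65 ± 0.12, edgeR adjusted p = 4.59e-09), and fell by log2 -1.49 in Teff. Cdk6, the partner kinase of the D cyclins, had 40.0 ± 0.302 CPM in WT Treg and 13.9 ± 1.90 CPM in Tconv (1.53 ± 0.15, edgeR adjusted p = 3.77e-07) and 31.6 ± 3.27 CPM in cTreg and 8.87 ± 0.590 CPM in Tnaive (1.83 ± 0.14, edgeR adjusted p = 2.84e-08).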
